A study of Saccharomyces cerevisiae with 22 samples.

Results

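NDI1, NDE1 and NDE2 encode the NADH dehydrogenases of the mitochondrial inner membrane of Saccharomyces cerevisiae, and CYB2 and DLD1 encode mitochondrial lactate dehydrogenases. These genes were chosen by name and no measured value entered the rule, though earlier results of these data were known. They are 5 of the 5449 genes that the arrays measured. Each was read by 1 probe set, a group of short probes summarised into a single value, assigned to the loci YML120C (NDI1), YMR145C (NDE1), YDL085W (NDE2), YML054C (CYB2) and YDL174C (DLD1).

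Transcripts were measured with Affymetrix yeast arrays in glucose-limited chemostats at steady state, in which only the oxygen in the feed gas differed by design, from none (0%) over 0.5%, 1.0% and 2.8% to full aeration (20.9%). All cultures were of CEN.PK113-1A, a haploid laboratory strain of mating type alpha, in a minimal medium that also held ergosterol and Tween so that cells without oxygen could grow. There were 6 arrays at 1.0% oxygen and 4 at each of the other levels, and those at 1.0% carried replicate numbers 2 to 7. At 2.8 and 20.9% oxygen, exponentially growing cells had been added when the medium feed was started, to prevent oscillations. In 2 samples at 2.8% oxygen, replicates 2 and 4, the cells were centrifuged directly, while the others were collected in cold buffer. The samples at 0.5 and 2.8% oxygen came from 2 cultivations each, and several of those at 1.0% came from the same cultivation. The labels do not tie samples to cultivations, so the p-values rest in part on samples that shared a chemostat, and are then too small.

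NADH cannot cross the mitochondrial inner membrane, and this yeast has no proton-pumping complex I. Ndi1p faces the matrix and oxidises the NADH made there by the TCA cycle, while Nde1p and Nde2p face the other side of the membrane and oxidise cytosolic NADH, and all of these single-subunit enzymes pass the electrons to ubiquinone without pumping protons. Cyb2p (flavocytochrome b2, in the intermembrane space) oxidises L-lactate and Dld1p oxidises D-lactate, and both give their electrons to cytochrome c, downstream of ubiquinone.

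The values were log2 intensities, so a difference of 1 is a doubling, and a level is relative to the rest of the RNA on the same array, so that less of a transcript in each cell and fewer cells holding it could not be told apart. Levels of different probe sets cannot be set against each other and only changes were compared. The medians of the arrays were close, and the lowest value of any of the 5 genes, 6.82 for CYB2 in a sample without oxygen, lay above the 10th percentile of all genes (6.64). All values of CYB2 and NDE2 at 0% oxygen lay below the 25th percentile (8.04), however. How much of them was background was not tested, so the fold changes of both genes from 0% oxygen are uncertain in size. Of the alpha-cell transcripts, MF(ALPHA)1 lay between 12.39 and 14.20 in all arrays, STE3 between 8.54 and 11.99 and SAG1 between 7.93 and 13.12. Of the a-cell transcripts, BAR1 lay between 5.13 and 6.45 and MFA2 between 5.305 and 6.49. STE2 ran from 6.605 to 7.85 and MFA1 from 6.00 to 8.67, so the 2 sets were not wholly apart. The cell wall gene DAN1, known from anaerobic cells, averaged 13.34 at 0% oxygen and between 4.28 and 4.92 at the other levels. After the group means were taken off, the values of an array spread over genes with an SD between 0.08 and 0.34, and it was largest in replicate 4 at 20.9% oxygen (0.34) and replicate 4 at 2.8% oxygen (0.32). Where a called change of the 5 genes to or from these levels is given with its value, the value without these arrays follows it.

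Each of the 5 dehydrogenase genes differed between oxygen levels. NDI1 was highest at the intermediate levels and NDE1 rose at once and stayed high, whereas NDE2 had its large rise between 2.8 and 20.9% oxygen. CYB2 was lowest without oxygen by far and highest at full aeration, and DLD1 was high at both ends of the range and low at 0.5 and 1.0%. In the F test of limma over the 5 levels all 5 genes were called (adjusted p under 0.01), where 60.0% of all genes were. Ordered by their F statistic among all genes, NDE1 was at place 10, NDI1 at 28, CYB2 at 30, NDE2 at 242 and DLD1 at 935.

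**Figure D1:**
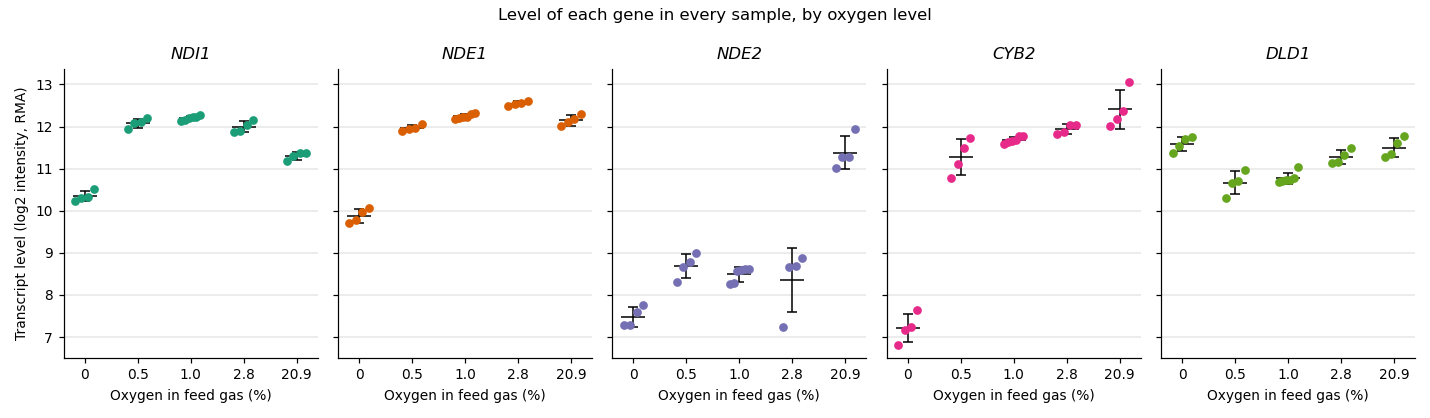
Transcript level (log2 intensity after RMA normalisation) of each gene in every sample against the oxygen in the feed gas, with points spread sideways by value and with group means and SDs as bars (n = 4, and 6 at 1.0%). NDI1 is highest from 0.5 to 2.8% oxygen, NDE2 stands apart at 20.9%, CYB2 is low only at 0% and DLD1 dips at 0.5 and 1.0%; heights are not comparable between panels.

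The first 0.5% of oxygen moved every one of these genes. From 0 to 0.5% oxygen NDI1, NDE1, NDE2 and CYB2 rose and DLD1 fell, so that 5 of 5 were called against 26.9% of all genes. Between 0.5 and 1.0% oxygen 0 of 5 were called by limma, against 0.165% of all genes. At an unadjusted p under 0.05 it would have been 2 of 5, but the share of all genes at that threshold was not counted. The lowest adjusted p of the 5 was that of NDE1 (0.0700).

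The intermediate steps gave few calls. From 0.5 to 2.8% oxygen 2 of 5 were called, NDE1 and DLD1, against 5.67% of all genes, and from 1.0 to 2.8% oxygen 0 of 5 were called, against 1.71% of all genes. In the latter comparison NDE1 (adjusted p = 0.0130) and DLD1 (adjusted p = 0.0186) came closest to the threshold. There 3 of 5 had an unadjusted p under 0.05, for which no share of all genes was counted either.

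The last step, from 2.8 to 20.9% oxygen, turned the genes apart. NDI1 and NDE1 fell and NDE2 rose, which made 3 of 5 called against 40.5% of all genes, and CYB2 and DLD1 were not called. Full aeration was called against 0.5% oxygen in 4 of 5 genes (35.2% of all genes) and against 1.0% oxygen in 4 of 5 (42.7%), with NDE1 as the gene not called each time. Against 0% oxygen, 5 of 5 genes were called at 1.0% (28.6% of all genes), 3 of 5 at 2.8% (25.7%) and 4 of 5 at 20.9% (50.6%). The mean of the 3 intermediate levels was called against 0% in 5 of 5 genes (33.1% of all genes) and against 20.9% in 4 of 5 (47.7%), again without NDE1. All comparisons with 0% oxygen use the same 4 arrays, and those with 20.9% share theirs likewise.

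**Figure D2:**
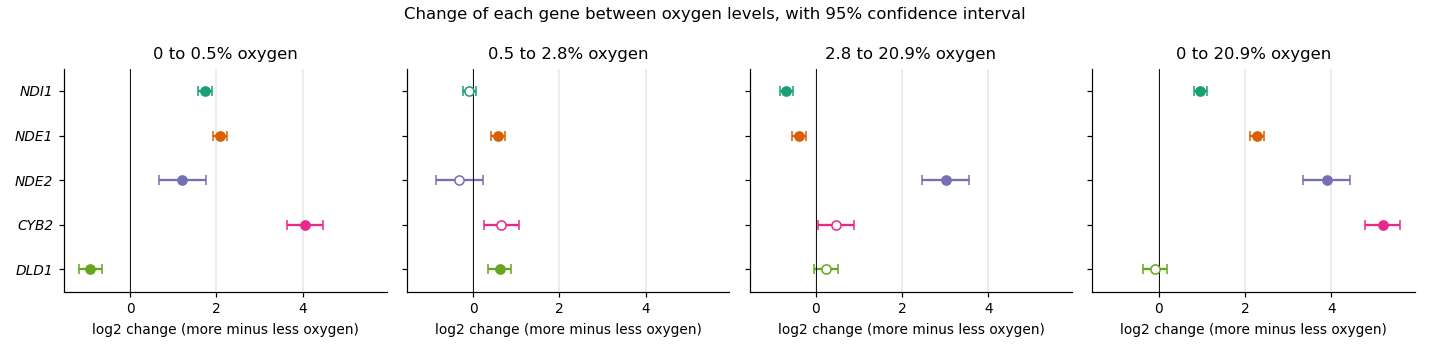
Change of each gene (log2 scale, the level with more oxygen minus that with less) in 4 comparisons, with 95% confidence intervals from the limma fit; filled points have an adjusted p under 0.01. NDE2 has its largest step, 3.01, between 2.8 and 20.9% oxygen, where NDI1 and NDE1 lie below 0.

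NDI1, the internal enzyme, was more than 3-fold higher in every oxygen-limited condition than without oxygen, and fell again at full aeration. Its 4 samples at 0% oxygen read 10.30, 10.23, 10.32 and 10.51, and those at 0.5% read 12.11, 12.19, 12.08 and 11.94. The 6 samples at 1.0% oxygen ran from 12.14 over a median of 12.22 to 12.27. The anaerobic samples lay below all others by a wide gap, and the samples at 0.5 and 1.0% overlapped. At 2.8% oxygen the values were 11.90, 11.88, 12.03 and 12.16, and at 20.9% they were 11.30, 11.18, 11.37 and 11.37. The aerobic samples thus formed a group of their own between the anaerobic and the oxygen-limited ones, overlapping with neither.

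The group means of NDI1 were 10.34 ± 0.12 at 0%, 12.08 ± 0.11 at 0.5%, 12.21 ± 0.05 at 1.0%, 11.99 ± 0.13 at 2.8% and 11.31 ± 0.09 at 20.9% oxygen (log2, SD, n = 4, and 6 at 1.0%). The rise from 0 to 0.5% oxygen was 1.74 ± 0.08 (SE, 3.34-fold, adjusted p = 8.45e-14), and the fall from 2.8 to 20.9% was -0.69 ± 0.08 (1.61-fold, adjusted p = 3.34e-07), or -0.63 without replicate 4 at 2.8% and -0.71 without replicate 4 at 20.9%. The means at the 3 intermediate levels did not differ from each other past the threshold, with changes between -0.21 and 0.12. Full aeration still left NDI1 1.95-fold above the anaerobic level (0.96 ± 0.08, adjusted p = 6.32e-10, and 0.94 without replicate 4 at 20.9%). The mean of these 3 levels exceeded both ends, by 1.75 ± 0.06 over 0% and by 0.79 ± 0.06 over 20.9% oxygen (adjusted p = 1.16e-09). Without replicate 4 at 2.8% these were 1.73 and 0.77, and without replicate 4 at 20.9% the latter was 0.81.

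NDE1, an external enzyme, rose steeply with the first oxygen and then changed little. It read 9.96, 10.06, 9.71 and 9.78 at 0% oxygen and 11.96, 12.06, 11.89 and 11.95 at 0.5%. At 1.0% oxygen it ran from 12.19 over a median of 12.23 to 12.32. Each of these groups lay wholly above the one before it. The 4 samples at 2.8% oxygen were the highest of all, at 12.49, 12.52, 12.56 and 12.61, and those at 20.9% read 12.31, 12.17, 12.01 and 12.11. The aerobic samples lay below those at 2.8% and overlapped with those at 0.5 and 1.0% oxygen.

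The means of NDE1 were 9.88 ± 0.16, 11.96 ± 0.07, 12.24 ± 0.05, 12.54 ± 0.05 and 12.15 ± 0.13 from 0 to 20.9% oxygen. The step from 0 to 0.5% was 2.09 ± 0.08 (4.25-fold, adjusted p = 3.96e-15), and from 0.5 to 2.8% oxygen a further 0.58 ± 0.08 was added (adjusted p = 2.07e-05, and 0.56 without replicate 4 at 2.8%). From 2.8 to 20.9% oxygen NDE1 fell by 0.39 on the log2 scale (SE 0.08, 1.31-fold, adjusted p = 1.91e-04), and without replicate 4 at 2.8% or at 20.9% the change was -0.37 or -0.38. This fall was not called with cyclic loess between arrays (-0.24, adjusted p = 0.0140) or when just the arrays of both levels entered the fit (adjusted p = 0.0106). From 0.5 to 20.9% oxygen NDE1 was not called in the main fit (0.19, adjusted p = 0.0457), but it was with cyclic loess (0.33, adjusted p = 0.0016). Unlike for NDI1, the mean of the intermediate levels was not called against full aeration, with a difference of 0.10 (95% interval -0.03 to 0.23, adjusted p = 0.157).

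NDE2, the other external enzyme, took another course. It was low under all oxygen limitation and rose 8.08-fold from 2.8 to 20.9% oxygen. It read 7.27, 7.30, 7.76 and 7.59 at 0% oxygen and 8.67, 8.99, 8.78 and 8.30 at 0.5%. At 1.0% oxygen it ran from 8.25 over a median of 8.57 to 8.62. The samples at 0.5 and 1.0% lay above the anaerobic ones and overlapped with each other. At 2.8% oxygen the values were 8.66, 8.68, 8.87 and 7.23, and at 20.9% they were 11.01, 11.29, 11.28 and 11.94. Replicate 4 at 2.8% oxygen was lower than every anaerobic sample, while replicate 4 at 20.9% was the highest of all, and the aerobic samples lay far above the rest.

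The means of NDE2 were 7.48 ± 0.24, 8.68 ± 0.29, 8.49 ± 0.17, 8.36 ± 0.76 and 11.38 ± 0.39 from 0 to 20.9% oxygen. The rise from 2.8 to 20.9% was 3.01 ± 0.26 (adjusted p = 1.73e-08), the 34th largest change of all genes in that comparison, and the rise from 0 to 20.9% was 3.90 ± 0.26 (14.9-fold, adjusted p = 5.74e-11). The former was 2.64 without replicate 4 at 2.8% and 2.83 without replicate 4 at 20.9% oxygen, and the latter was 3.71 without replicate 4 at 20.9%. The rise from 0 to 0.5% oxygen was smaller, at 1.20 ± 0.26 (2.30-fold, adjusted p = 0.00101). With just 2 of the 4 samples kept at 0.5 and at 2.8% oxygen, this rise was called in 27 of 36 choices. At 2.8% oxygen NDE2 was not called against 0% (0.88 ± 0.26, adjusted p = 0.0112). Without replicate 4 at 2.8% oxygen it was called (1.26 ± 0.18, adjusted p = 1.16e-05), as it was without both directly centrifuged samples (1.29, adjusted p = 8.74e-05) and without replicate 4 at 20.9% oxygen (adjusted p = 0.00689).

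Whether the NADH dehydrogenase genes changed unequally was tested on the difference of 2 genes within each array, by exact two-sided permutation tests of 4 against 4 arrays, whose smallest possible p is 0.0286. With the lactate dehydrogenases included, 12 such tests were run and their p-values adjusted together. Counted by cultivation, the tests with 0.5 or 2.8% oxygen would be 2 against 4, which cannot give an exact p under 0.0667. The calls in these tests thus rest on arrays treated as separate samples. From 2.8 to 20.9% oxygen NDE1 changed by -3.41 ± 0.46 (SE) relative to NDE2, and NDI1 by -3.70 ± 0.47, on the log2 scale (adjusted exact p = 0.0381 for each). Without the 2 directly centrifuged samples the differences were -2.98 and -3.27, with 2 arrays left at 2.8% oxygen. No call was possible there, since 2 against 4 arrays cannot give an exact p under 0.0667.

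From 0 to 0.5% oxygen the order was the reverse, and NDE1 rose by 0.88 ± 0.24 more than NDE2 and NDI1 by 0.54 ± 0.14 more than NDE2 (adjusted exact p = 0.0381 for each). Each of these calls was lost without 1 array, that of NDE1 without replicate 4 at 0.5% (0.76, adjusted exact p = 0.0686) and that of NDI1 without replicate 3 at 0% oxygen (0.43, adjusted exact p = 0.0623). NDI1 and NDE1 themselves parted over the whole range, with NDI1 gaining 1.31 ± 0.16 less than NDE1 from 0 to 20.9% oxygen (adjusted exact p = 0.0381). Their difference did not pass the threshold from 0 to 0.5% (-0.35 ± 0.13) or from 2.8 to 20.9% oxygen (-0.29 ± 0.10, adjusted exact p = 0.0623 for both). It was called without replicate 2 at 0% oxygen in the former (-0.45, adjusted exact p = 0.0343) and without replicate 3 at 20.9% in the latter (-0.36, adjusted exact p = 0.0343).

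**Figure D3:**
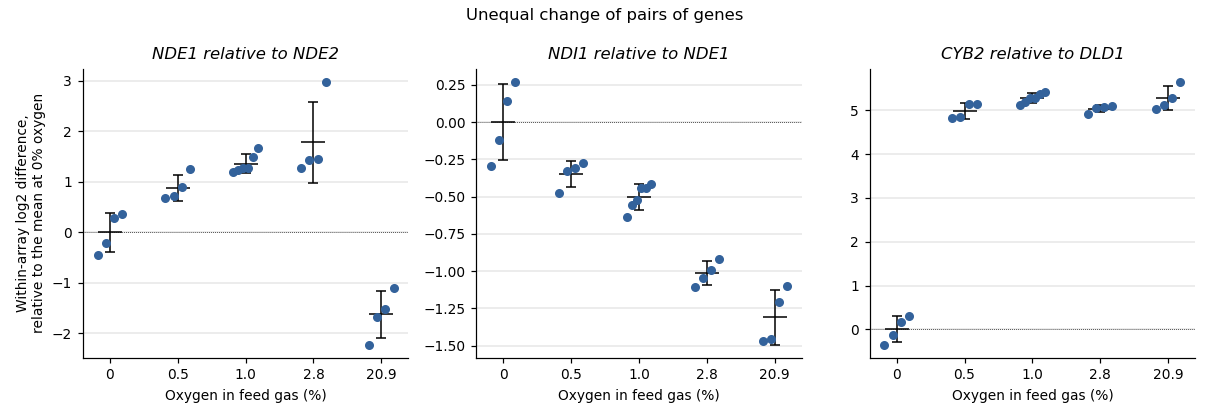
Difference of 2 genes within each array (log2), relative to its mean at 0% oxygen, with group means and SDs as bars; NDE1 relative to NDE2, NDI1 relative to NDE1 and CYB2 relative to DLD1. The first pair rises with limited oxygen and drops below the anaerobic level at 20.9%, the middle pair falls with oxygen, and the last jumps by 4.98 at 0.5% oxygen and then stays near that height.

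CYB2, for L-lactate, had the largest change of the 5 genes, and most of it came with the first oxygen. The samples at 0% oxygen read 7.18, 6.82, 7.64 and 7.24, and those at 0.5% read 11.49, 11.74, 11.11 and 10.78. At 1.0% oxygen CYB2 ran from 11.60 over a median of 11.67 to 11.78. No anaerobic sample came near any other, while the samples at 0.5 and 1.0% overlapped. The values were 11.82, 11.86, 12.05 and 12.03 at 2.8% oxygen and 12.37, 12.02, 12.18 and 13.07 at 20.9%. The samples at 2.8% lay just above those at 1.0% oxygen and overlapped with the aerobic ones, of which replicate 4 was the highest.

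The means of CYB2 rose at each level in turn, being 7.22 ± 0.34, 11.28 ± 0.42, 11.69 ± 0.07, 11.94 ± 0.12 and 12.41 ± 0.46, but neighbouring levels from 0.5% upwards did not differ past the threshold. From 0 to 0.5% oxygen CYB2 rose by 4.06 ± 0.20 (16.7-fold, adjusted p = 6.42e-13), the 23rd largest change of all genes, and from 0 to 20.9% by 5.19 ± 0.20 (36.4-fold, adjusted p = 6.94e-15), the 21st largest, or by 4.97 without replicate 4 at 20.9%. Full aeration exceeded 0.5% oxygen by 1.13 ± 0.20 (adjusted p = 9.81e-05), or by 0.91 without replicate 4 at 20.9% (adjusted p = 3.15e-04), and 1.0% oxygen by 0.72 ± 0.18 (adjusted p = 0.00226). The latter call depended on replicate 4 at 20.9% oxygen, without which the difference was 0.50 (adjusted p = 0.0148), and it was not made with array weights either (0.51, adjusted p = 0.0120).

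DLD1, for D-lactate, was the only one of the 5 that fell when oxygen was first provided. It read 11.37, 11.53, 11.70 and 11.74 at 0% oxygen and 10.71, 10.97, 10.66 and 10.30 at 0.5%. At 1.0% oxygen it ran from 10.68 over a median of 10.72 to 11.04, the last being replicate 2. The anaerobic samples were above all of those at 0.5 and 1.0% oxygen, which overlapped. It read 11.14, 11.16, 11.32 and 11.48 at 2.8% and 11.61, 11.35, 11.27 and 11.78 at 20.9% oxygen. Both of these groups overlapped with each other and with the anaerobic samples.

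The means of DLD1 were 11.58 ± 0.17, 10.66 ± 0.27, 10.77 ± 0.13, 11.27 ± 0.16 and 11.50 ± 0.24 from 0 to 20.9% oxygen. From 0 to 0.5% oxygen it fell by 0.92 on the log2 scale (SE 0.13, 1.90-fold, adjusted p = 9.89e-06), and from 0.5 to 20.9% it rose by 0.84 ± 0.13 (adjusted p = 2.64e-05), or by 0.75 without replicate 4 at 20.9% (adjusted p = 1.33e-04). Anaerobic and aerobic cultures were not called different (-0.08, 95% interval -0.36 to 0.19, adjusted p = 0.595). The rise from 0.5 to 2.8% oxygen (0.61 ± 0.13, adjusted p = 0.00416) was less firm. It was not called without replicate 3 or 4 at 0.5% or replicate 3 or 4 at 2.8% oxygen (0.49 to 0.61, adjusted p between 0.0118 and 0.0140), nor without both directly centrifuged samples (0.57, adjusted p = 0.0391). With 2 of the 4 samples kept at both levels, as many as there were cultivations, it was called in 2 of 36 choices, and the matching rise of NDE1 in 24 of 36.

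The lactate dehydrogenase genes moved apart when oxygen was provided. Within arrays CYB2 gained 4.98 ± 0.17 (SE) on DLD1 from 0 to 0.5% oxygen and 5.27 ± 0.20 from 0 to 20.9% (adjusted exact p = 0.0381 for each). Before adjustment both were at 0.0286, the smallest exact p these tests could give with arrays treated as separate samples. From 2.8 to 20.9% oxygen the difference between them changed by 0.24 ± 0.14, which was not called (adjusted exact p = 0.114), though it was without replicate 2 at 20.9% oxygen (0.32, adjusted exact p = 0.0343).

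Around the average of their own oxygen level, some of these genes also varied together from array to array, which is given as a description. Over the 22 arrays the deviations of CYB2 and DLD1 had a Pearson r of 0.771, those of NDI1 and DLD1 of 0.651, and those of NDE1 and NDE2 of -0.375. Replicate 4 at 0.5% oxygen had the lowest value of its group for NDI1, NDE2, CYB2 and DLD1, and replicate 4 at 20.9% oxygen had the highest, or shared it, for the same 4 genes. Without replicate 4 at 2.8% and replicate 4 at 20.9% oxygen the 3 values were 0.740, 0.595 and -0.359 over 20 arrays. The points of such a correlation share their array and its normalisation, and in part their cultivation.

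The other enzymes that feed electrons into ubiquinone mostly followed the course of NDI1. All 6 of them (GUT2, PUT1 and the 4 subunits of succinate dehydrogenase) rose from 0 to 0.5% oxygen, where 26.9% of all genes were called, with a median change of 0.87 beside -0.04 over all genes. In the last step, where 40.5% of all genes were called, 5 of 6 fell (median -0.43 beside -0.04). PUT1, the proline oxidase, rose most (3.68 from 0 to 0.5% oxygen, adjusted p = 5.28e-15). Unlike NDI1 it rose further, by 1.57 from 0.5 to 2.8% (adjusted p = 6.95e-08), and then dropped by 1.82 (log2) between 2.8 and 20.9% (adjusted p = 1.83e-09). Full aeration was not called against 0.5% oxygen for PUT1 (-0.26, adjusted p = 0.125). GUT2, the mitochondrial glycerol 3-phosphate dehydrogenase that also takes up cytosolic reducing power, rose by 2.46 (adjusted p = 3.08e-13) and was the gene not called in the last step (0.17, adjusted p = 0.228).

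Downstream of these enzymes, 17 of 18 genes for complexes III and IV and cytochrome c rose from 0 to 0.5% oxygen (26.9% of all genes called, median 0.95) and 17 of 18 fell from 2.8 to 20.9% (40.5% called, median -0.57 beside -0.04 over all genes), with COX9 and QCR6 as the respective genes not called. CYC1, for the cytochrome c that receives the electrons of Cyb2p and Dld1p, rose by 2.09 (adjusted p = 4.45e-13) and then fell by 1.03 on the log2 scale (adjusted p = 7.76e-08). Of 9 genes for enzymes that make NADH in the matrix, the side served by Ndi1p, 6 rose from 0 to 0.5% oxygen (median 0.36) and none fell. In the last step 4 of the 9 fell and none rose (median -0.20), close to the 40.5% of all genes called. Those that fell were IDH1, IDH2, KGD1 and KGD2 of the TCA cycle, by 0.41 to 0.92 on the log2 scale.

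Lactate-related genes did not move as a group. Of 11 such genes 5 rose and 1 fell from 0 to 0.5% oxygen (26.9% of all genes called, median 0.34 beside -0.04), and 8 rose and 2 fell from 0 to 20.9% (50.6% called, median 0.69 beside -0.07). JEN1, the lactate permease, rose by 2.11 from 0 to 0.5% oxygen (adjusted p = 1.18e-12) and by 4.57 from 0 to 20.9% (adjusted p = 2.80e-18). DLD3, for a cytosolic relative of Dld1p, fell by 2.66 (log2) in the first step (adjusted p = 6.38e-12), and DLD2, for a mitochondrial relative, rose by 0.63 (adjusted p = 3.23e-05). GLO1 and GLO4, glyoxalases of the route from methylglyoxal to D-lactate, were not called from 0 to 0.5% (-0.22 and 0.18), and rose from 2.8 to 20.9% oxygen by 0.94 and 1.17 (adjusted p = 2.27e-05 and 1.52e-06).

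Genes of NADH shuttles and carriers, not all of which act on cytosolic NADH, the substrate of Nde1p and Nde2p, were mixed as well. Of these 14 genes, among them MDH1 of the matrix list above, 4 rose and 3 fell from 0 to 0.5% oxygen (26.9% of all genes called, median -0.04, the same as over all genes). From 2.8 to 20.9% 6 rose and 1 fell (40.5% of all genes called, median 0.29 beside -0.04). The 7 of 14 called in the last step are near that general share. MDH2, the cytosolic malate dehydrogenase, rose by 1.96 in the last step (adjusted p = 1.25e-07), where NDE2 rose too, while ADH3, of the ethanol-acetaldehyde shuttle, fell by 0.59 on the log2 scale (adjusted p = 1.28e-07). Of 5 genes that reoxidise NADH without respiration, 2 fell from 0 to 0.5% oxygen, the fumarate reductase FRD1 (by 1.59 on the log2 scale, adjusted p = 4.07e-12) and the glycerol 3-phosphate dehydrogenase GPD2 (by 1.10, adjusted p = 0.00350), and none rose (median -0.18), a number called near the general share as well.

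Of 10 regulator genes 5 rose and 1 fell from 0 to 0.5% oxygen (26.9% of all genes called, median 0.45 beside -0.04 over all genes). HAP4, for the activating subunit of the complex that controls respiratory genes, followed an arch like that of NDI1, rising by 0.66 at 0.5% (adjusted p = 5.07e-05) and then changing by -0.44 in the last step (adjusted p = 0.00185). HAP1, for the haem-responsive activator, instead fell by 0.87 on the log2 scale at the first step (adjusted p = 8.14e-06) and rose by 0.73 at the last (adjusted p = 5.31e-05). SIP4, for an activator of gluconeogenic genes, had its main rise, 2.86, from 2.8 to 20.9% oxygen (adjusted p = 2.25e-08). From 2.8 to 20.9% oxygen 3 of the 10 rose and 3 fell, where 40.5% of all genes were called (median 0.17 beside -0.04).

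**Figure D4:**
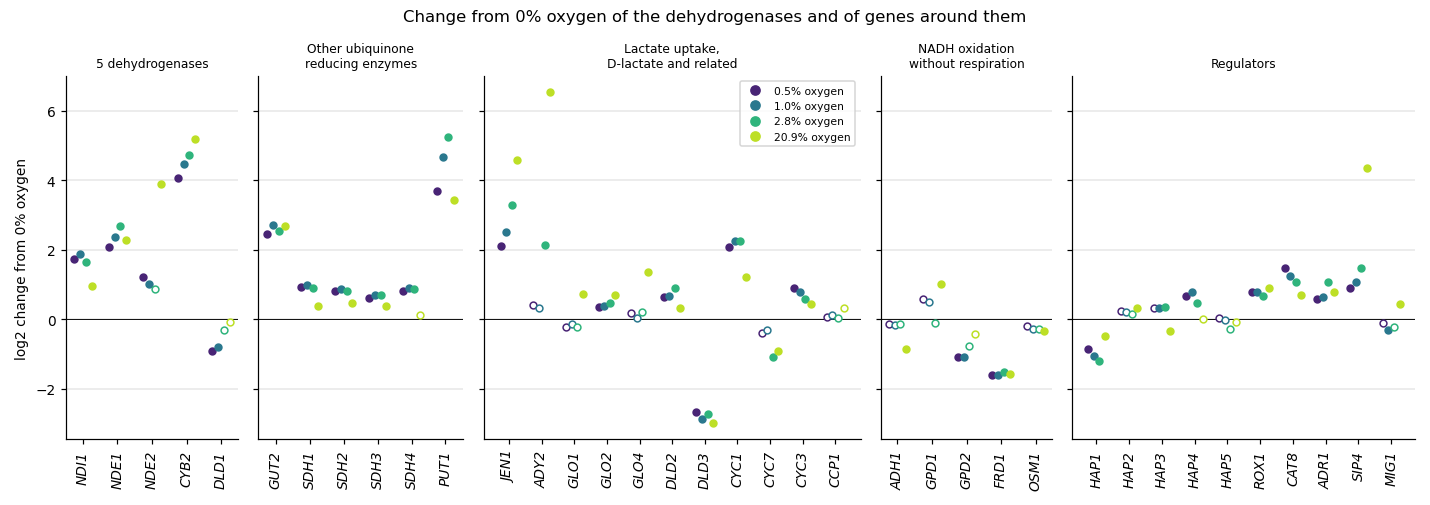
Change from 0% oxygen (log2 scale) at the other 4 levels for the 5 dehydrogenase genes and for 4 lists of genes around them; filled points have an adjusted p under 0.01, and all points share the anaerobic arrays. CYB2, NDE2, JEN1, ADY2 and SIP4 have the largest rises at 20.9% oxygen, while NDI1, PUT1 and the succinate dehydrogenase genes SDH1 to SDH4 are lower there than at 0.5 to 2.8%.

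The 3 genes whose levels most resembled each of the 5 over the 22 arrays differed from gene to gene, and are given by Pearson r as a description, in which differences between oxygen levels take the main part. For NDI1 they were QCR2 (0.989) and COR1 (0.981), core subunits of complex III, and AAC1 (0.978), an ADP/ATP carrier. NDE1 was closest to HMX1 (0.989), the haem oxygenase, the amino acid permease gene BAP2 (0.989) and ADI1 (0.982) of methionine salvage. NDE2 was closest to NQM1 (0.993), a transaldolase gene, HXT5 (0.986), for a hexose transporter, and BTN2 (0.985).

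HXT5 shared with NDE2 the low intermediate means (9.45, 9.33 and 9.12) and the high aerobic one (12.70), and NQM1 had a course of the same shape, from 8.78, 8.58 and 8.30 to 11.69. For CYB2 the closest genes were LSB6 (0.987), SUE1 (0.986), a gene of cytochrome c turnover, and CLD1 (0.985), for a cardiolipin deacylase. No gene tracked DLD1 as closely, the highest values being 0.859 for SUT2, 0.858 for MRI1 and 0.848 for PDR3. Among the 5 genes themselves the closest pair was NDE1 and CYB2 (0.960), and the external genes NDE1 and NDE2 had a value of 0.423.

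Between 0 and 20.9% oxygen, genes next to the 5 on the chromosomes did not share their large changes. The neighbours of NDE2 are YDL085C-A, which fell by 1.60 (log2) between 0 and 20.9% oxygen (adjusted p = 4.24e-10), and SUB2, which was not called (-0.09). SPC2, beside CYB2, fell by 0.81 on the log2 scale (adjusted p = 8.68e-07). The other 6 neighbours measured changed by between -0.43 and 0.47 in this comparison, against changes of 0.96 to 5.19 for the called dehydrogenase genes. In single steps some moved the same way. YML119W, beside NDI1, rose by 0.26 from 0 to 0.5% oxygen (adjusted p = 0.00724). From 2.8 to 20.9% GTR1, also beside NDI1, changed by -0.34 (adjusted p = 0.00139) and TIF34, beside NDE1, by -0.55 (adjusted p = 1.68e-04). YDL085C-A went against NDE2 in both steps (-1.24 and -0.67), and SPC2 against CYB2 in the first (-0.58).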

How the data were processed

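The authors deposited log2 values per probe set, made by RMA normalisation of 22 Affymetrix yeast arrays, with 1 further array at 1.0% oxygen set aside as outlying and not analysed here. The raw images were not used, so background, saturation and probe-level signal were not examined. Of 5716 probe sets 5498 had 1 gene in the platform annotation, and 218 without a single gene were left out. For 47 genes with several probe sets, those with a plain name (digits and _at) were preferred to suffixed ones, and the highest mean then decided, giving 5449 genes. Depth has no counterpart on arrays, whose number limits the precision.

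All 22 arrays entered 1 limma 3.58.1 fit (R 4.3.3) with the 5 oxygen levels as groups, after the design of the study's methods. Moderated tests were Benjamini-Hochberg adjusted over all genes and called under 0.01. The script was tested on simulated data. Exact permutation tests used SciPy 1.17.1 and were called under an adjusted p of 0.05. Figures were drawn with Matplotlib 3.10.9. The 5 genes are named throughout, with the 3 genes closest to each by Pearson r and members of 7 lists of related genes, preferring large changes past the threshold. Genes and lists were chosen with earlier results of these data known.

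The alternatives were cyclic loess, median centring, array weights, a replicate block, an intensity trend with robust estimation, other treatments of probe sets, leaving out the dimmest 25% of genes, only the levels compared in the fit, 2 samples each at 0.5 and 2.8% oxygen, and leaving out each array or both directly centrifuged samples.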

Additional observations from a re-analysis of the deposited data

Results flagged for a closer look

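Dixon's test was run on 25 groups of samples (5 genes at 5 oxygen levels). It divides the gap between the outermost sample and its neighbour by the range of the group. In 2 of 25 groups this share passed the critical value (0.829 for 4 samples, 0.625 for 6). Chance alone gives about 1 in 20 such groups. NDE2 read 7.23 in replicate 4 at 2.8% oxygen, where the other 3 samples lay between 8.66 and 8.87. In that sample the cells had been centrifuged directly, as in replicate 2 at the same level (8.68), and the array also had a wide spread over all genes (SD 0.32). The part of either in the low value was not tested. DLD1 read 11.04 in replicate 2 at 1.0% oxygen, against 10.68 to 10.78 in the other 5 samples.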

How the results depend on the processing

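The number of genes called was 5 of 5 in every alternative for the F test over oxygen levels and for 0 against 0.5% oxygen (as the median over choices where 2 samples were kept). Array weights raised the number of genes called from 3 to 5 for 0 against 2.8% oxygen (39.5% of all genes called with weights), from 0 to 1 for 0.5 against 1.0% (20.4%), from 2 to 4 for 0.5 against 2.8% (31.9%) and from 0 to 3 for 1.0 against 2.8% (15.8%). They thus raised the calls over all genes too, and 1 of 5 is the general share. When just the arrays of the levels compared entered the fit it was 1 for 0.5 against 2.8% (2.53% of all genes) and 2 for 1.0 against 2.8% oxygen (2.92%). For 0.5 against 2.8% it also fell to 1 without both directly centrifuged samples (2.24% of all genes) and with 2 samples kept at each of these levels. Leaving out 1 array at a time gave 1 to 3 for 0.5 against 2.8%, 0 to 1 for 1.0 against 2.8%, 3 to 4 for 0 against 2.8% and 3 to 4 for 1.0 against 20.9% oxygen, and the main number otherwise.

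Same-numbered samples did not deviate together (r from -0.595 to 0.581 over 36 pairs, with every pair over 0.1 in 0 of 10 comparisons), so the numbers do not pair them. The replicate block left 1 gene called for 0.5 against 2.8% oxygen (2.77% of all genes). With it NDE2 from 0 to 1.0% (0.99, adjusted p = 0.0330) and CYB2 from 1.0 to 20.9% (0.69, adjusted p = 0.0454) were not called.

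The unequal changes within arrays kept their sign without each array in turn. From 0 to 0.5% oxygen the ranges were -0.45 to -0.26 for NDI1 against NDE1, 0.43 to 0.60 for NDI1 against NDE2, 0.73 to 1.01 for NDE1 against NDE2 and 4.87 to 5.09 for CYB2 against DLD1. From 2.8 to 20.9% they were -0.36 to -0.24, -3.86 to -3.27, -3.59 to -3.01 and 0.12 to 0.32, and from 0 to 20.9% oxygen -1.41 to -1.22, -3.05 to -2.77, -1.80 to -1.42 and 5.14 to 5.37. Without both directly centrifuged samples NDI1 and NDE1 against NDE2 were at -3.27 and -2.98 (adjusted exact p = 0.0800), and no call was possible, since 2 against 4 arrays cannot give an exact p under 0.0667.

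Among changes that were not called, a sign turned for NDE1 with cyclic loess (0.068 from 1.0 to 20.9%, and -0.053 for the intermediate mean against 20.9%) and for DLD1 with cyclic loess (0.090 from 0 to 20.9%) or without replicate 4 at 0.5% (-0.0071 from 0.5 to 1.0%, where leaving out single arrays gave up to 0.21). For NDE2 it turned without replicate 4 at 2.8% oxygen (0.055 from 0.5 and 0.25 from 1.0 to 2.8%, where leaving out single arrays reached down to -0.49 and -0.29), without both directly centrifuged samples (0.084 and 0.28) and with array weights (0.15 from 1.0 to 2.8%). The causes were not tested. At 2.8% oxygen there were 2 cultivations, 2 directly centrifuged samples and a sample that stood apart for NDE2.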
